A study of Mus musculus with 9 samples.

Results

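Asb15 and 7 other ASB genes that are well transcribed in skeletal muscle were followed in mouse plantaris, a fast hindlimb muscle, during hours of low oxygen. The 8 members, Asb15, Asb2, Asb5, Asb8, Asb10, Asb11, Asb12 and Asb14, were taken by symbol from the 13722 genes of the authors' deposited table, and no symbol was repeated among them. The table holds 16 ASB genes in all, and the 8 others are Asb1, Asb3, Asb4, Asb6, Asb7, Asb13, Asb16 and Asb18. The members were chosen by symbol with measured values already in view, namely RPKM in these 9 libraries, and Asb15 was selected on its high level at 2 h of hypoxia against control, so its differences, which all share those 2 h or control libraries, are given below as descriptions with no test.

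The animals were male C57BL/6J mice, 3 months old and without any engineered allele, kept at 8% oxygen for 0 h (control), 2 h or 6 h. Each group has 3 libraries, 9 in all. Nothing in the labels states that every library is its own animal, and the p-values cover the spread among libraries, which may be partly technical. The mice were killed by cervical dislocation under a mask that held 8% oxygen, per the labels' protocols. Both exposure times are set against the same 0 h controls, so low oxygen cannot be told apart from time of day, handling or anything else that ran with the hours.

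ASB proteins carry ankyrin repeats, which bind a substrate, and a SOCS box at the C-terminal end, which binds elongin B, elongin C and the scaffold Cul5. The scaffold recruits the RING protein Rnf7 (also called Rbx2), and the assembled complex is a ubiquitin ligase of the cullin-RING class in which the ASB protein chooses what is ubiquitinated. Several family members are known mainly from striated muscle, where ligases of this kind take part in protein turnover during growth, differentiation and wasting.

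The stretches just before the start sites of 4 members are shown: Asb15 and Asb11, which stood highest above control at 2 h, and Asb5 and Asb2, the most abundant members, which stood lower at 6 h. They are RefSeq sequences of build GRCm38.p6, 5′ to 3′ on the gene's strand and ending at the base before the start site. Asb5 and Asb2 have several start sites, and the most upstream one of each was used. No ACGTG was found around their other start sites, and which site is used in this muscle was not tested. Capitals in Asb15 mark AGAACA on either strand, a half-site of the glucocorticoid response element (TGTTCT is the same motif on the other strand). Capitals in Asb11, Asb5 and Asb2 mark ACGTG on either strand, the core of the hypoxia response element. The motif marked and the length shown differ between the genes by choice. Asb15 also held ACGTG, at -200 and -199, outside the stretch shown. The 130 bases before Asb15 lie at chr6:24528014-24528143 (plus strand), and the 250 bases of the others lie at chrX:164436744-164436993 (plus strand), chr8:54550081-54550330 (plus strand) and chr12:103356002-103356251 (minus strand). In mm9 a gap of 130 bases separates Asb15 from Ndufa5, a gene on the minus strand. The stretch shown for Asb15 may therefore lie before both genes.
Asb15: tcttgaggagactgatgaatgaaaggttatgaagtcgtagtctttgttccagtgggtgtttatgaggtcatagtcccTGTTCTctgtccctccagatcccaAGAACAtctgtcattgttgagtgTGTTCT
Asb11: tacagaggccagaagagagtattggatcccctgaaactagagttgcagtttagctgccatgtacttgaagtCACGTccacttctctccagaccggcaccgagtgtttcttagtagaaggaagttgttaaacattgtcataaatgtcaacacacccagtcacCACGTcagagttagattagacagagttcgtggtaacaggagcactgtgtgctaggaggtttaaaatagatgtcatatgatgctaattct
Asb5: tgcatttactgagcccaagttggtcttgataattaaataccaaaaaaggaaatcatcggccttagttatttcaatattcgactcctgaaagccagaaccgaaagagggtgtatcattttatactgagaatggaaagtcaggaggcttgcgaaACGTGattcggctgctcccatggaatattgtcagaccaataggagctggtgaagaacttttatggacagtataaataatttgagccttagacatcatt
Asb2: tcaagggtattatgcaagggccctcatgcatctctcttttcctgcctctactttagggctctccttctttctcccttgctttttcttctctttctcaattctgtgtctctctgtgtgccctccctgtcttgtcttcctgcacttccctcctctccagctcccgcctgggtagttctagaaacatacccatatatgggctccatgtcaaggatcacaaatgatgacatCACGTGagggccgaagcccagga

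All 8 members had at least 1 promoter window in the RefSeq table, 12 windows in all because Asb2, Asb5 and Asb8 have several start sites. A window runs from 250 bases before to 50 bases after a start site. The window of Asb15 held AGAACA 4 times, at positions -53, -29, -6 and 36 counted from the start site, and 15 of 32851 windows in the table (0.0457%) held it 4 or more times. The limit of 4 was taken from the count in Asb15 itself, so this share is a description and no test. At least 1 AGAACA lay in 4 of the 12 member windows, against 19% of all windows. ACGTG lay in 6 of the 12, against 19.6% of all windows, and in Asb2 and Asb15 it was the palindrome CACGTG, which counts on both strands and is also a CANNTG match. CANNTG, the E-box letters, lay in 10 of 12 against 72.3%, and CAGCTG, which is one form of it, in 2 of 12 against 16.3%. GTAAACA, a FoxO motif, lay in 0 of the 12 windows and in 3.65% of all windows. A match is a run of letters in a window and says nothing of binding.

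The members spanned a wide range of levels in control plantaris. RPKM (reads scaled by exon length and by the library's total) can be compared between genes because it is per length. The most abundant was Asb5, at 183 ± 23.8 RPKM (SD, n = 3), a gene first tied to the growth of collateral arteries in rabbits. It was followed by Asb2, at 153 ± 10.2 RPKM, whose muscle isoform directs the degradation of filamins and desmin. The libraries of these 2 overlapped, so their order was within the spread. Asb11, reported in human cells to target ribophorin 1 and in zebrafish to act on the Notch ligand Delta, stood at 60.7 ± 5.62 RPKM and overlapped neither neighbour in the order. Asb14 (38.9 ± 8.95 RPKM), Asb8 (35.5 ± 1.11) and Asb10 (32.4 ± 3.00) followed, and each overlapped the next. Asb12 stood at 20.3 ± 2.27 RPKM and Asb15 was the lowest, at 8.51 ± 2.05 RPKM, in both cases with no library overlapping the neighbour above. The fewest reads behind any member in any library were 946, for Asb12, and Asb15 had between 3129 and 32479.

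Depth and other cell types set the frame for these values. The reads recovered from the RPKM steps came to between 72706716 (6 h replicate 3) and 137097898 (2 h replicate 3) per library, which describes relative depth. The 10 fast-fibre markers were all present, with summed levels of 91458 to 93108 RPKM in control, 89973 to 100950 RPKM at 2 h and 83661 to 94790 RPKM at 6 h, as in a fast muscle. The 6 slow-fibre markers summed to 603 to 621 RPKM in control, 413 to 521 RPKM at 2 h and 920 to 5293 RPKM at 6 h, with the highest value in 6 h replicate 3. The 8 matrix and fibroblast markers summed to 966 and 1068 RPKM in control replicates 2 and 3 and to 1124 RPKM in 6 h replicate 2, against 318 to 621 RPKM in the other 6 libraries, and these 3 libraries are called high-matrix libraries below. The 5 nerve and Schwann cell markers summed to 643 RPKM in 6 h replicate 1 and to 52.5 to 84.8 RPKM elsewhere. Macrophage markers (6 of 7 in the table) summed to 114 to 186 RPKM in the high-matrix libraries and 26.9 to 36.6 RPKM in the others. Endothelial markers (5 of 5) summed to 42.3 to 46.6 RPKM in control, 29.7 to 41.0 RPKM at 2 h and 37.8 to 47.7 RPKM at 6 h, and erythroid markers (5 of 5) to 1064 to 3183, 434.5 to 2248 and 2990 to 7040 RPKM in the same order. Adipocyte markers (4 of 4) summed to 14.1 to 83.2 RPKM in control, 18.1 to 74.0 RPKM at 2 h and 72.1 to 251 RPKM at 6 h, and the satellite cell marker in the table (Myf5, 1 of 2 listed) had 0.453 to 0.977 RPKM in control, 1.26 to 1.75 RPKM at 2 h and 1.16 to 2.38 RPKM at 6 h, above every control at both times. Myf5 rested on only 3 to 17 reads per library, and limma did not call it (adjusted p = 0.119 at 2 h and 0.127 at 6 h). Of all tested genes, 14.9% at 2 h and 16.9% at 6 h lay above every control. The part of these levels in the results was not tested.

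Asb15 stood several-fold higher at 2 h than in control, and its 6 h mean lay between those of the other groups. In cultured mouse myoblasts, more ASB15 has been linked to slower differentiation and more protein synthesis. Replicates 1 to 3 held 10.8, 6.76 and 8.00 RPKM in control, 24.9, 59.9 and 35.8 RPKM at 2 h, and 20.2, 10.5 and 18.5 RPKM at 6 h. Every 2 h library was above every control and every 6 h library. The means were 40.2 ± 17.9 RPKM at 2 h and 8.51 ± 2.05 RPKM in control (SD, n = 3 each), a log2 difference of 2.11 (4.32-fold) on the log2(RPKM + 0.5) scale. The authors' deposited table gives 4.51-fold for the same pair. Among the 13722 genes of the table ranked by RPKM, Asb15 stood between ranks 875 and 2096 in the 2 h libraries and between ranks 3743 and 5154 in the controls. In bulk muscle, fewer or more cells of a type and less or more RNA per cell cannot be told apart.

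The lowest Asb15 value of the control and 6 h groups came from a high-matrix library, and the highest control value from the control library with the fewest matrix transcripts. Without the 3 high-matrix libraries the 2 h log2 difference for Asb15 was 1.76, and with a term for them 1.65. Without 2 h replicate 2, the highest library, it was 1.78. At 6 h Asb15 averaged 16.4 ± 5.21 RPKM, against 8.51 ± 2.05 RPKM in the same controls, a log2 difference of 0.88 (0.65 to 1.16 over 23 alternatives). The 6 h and control libraries overlapped, since 6 h replicate 2 lay below control replicate 1.

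**Figure D1:**
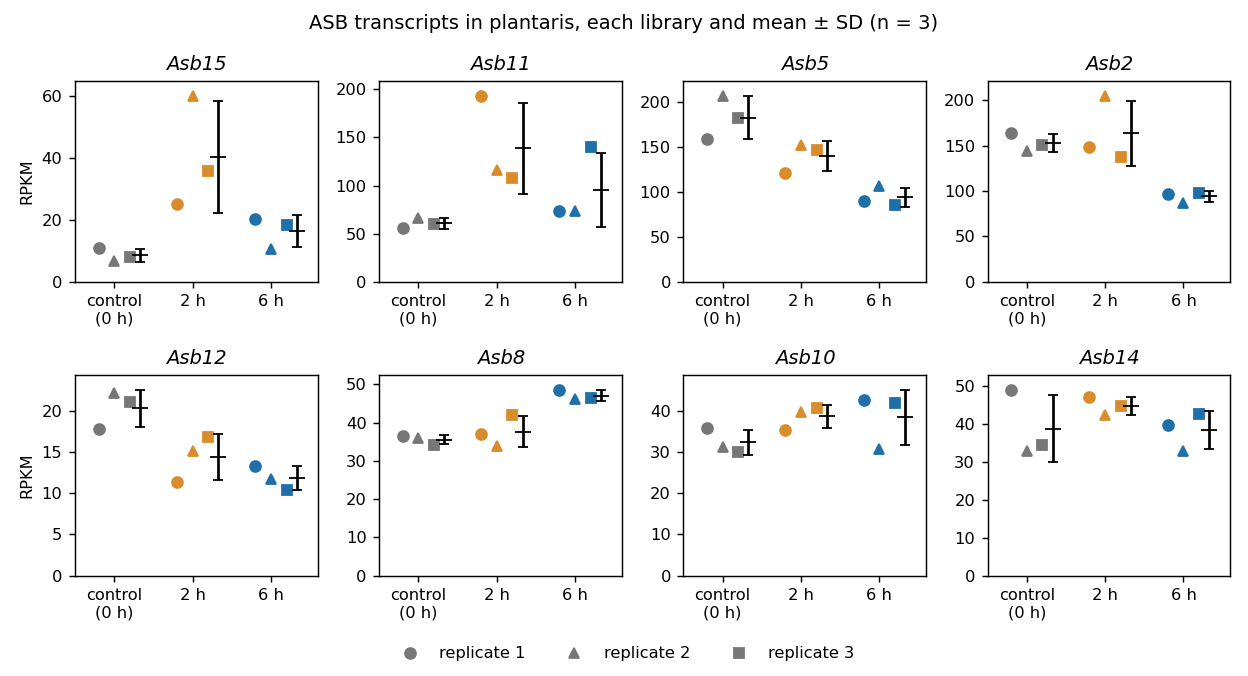
RPKM (y axis, from 0) of each of the 8 ASB members in every library, by group on the x axis, with replicate numbers as symbols and the mean ± SD of 3 libraries as a bar. Asb15 is highest in the 3 libraries at 2 h (24.9 to 59.9 RPKM), Asb5, Asb2 and Asb12 are lower at 6 h than in control, and Asb8 sits at 46.2 to 48.6 RPKM at 6 h against 34.3 to 36.4 RPKM in control.

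Asb11 was the other member with every 2 h library above every control. Its libraries held 55.5, 66.6 and 59.9 RPKM in control, 193, 116 and 107 RPKM at 2 h, and 73.4, 73.5 and 139.8 RPKM at 6 h. All 3 libraries at 6 h also lay above the controls. The log2 difference at 2 h was 1.14 (SE 0.28, 95% interval 0.50 to 1.78), or 2.20-fold, with an adjusted p of 0.0818 by limma, which misses the threshold of 0.05. DESeq2 on the recovered reads gave an adjusted p of 0.00182 for it, the lowest among the 23 alternatives, and the highest was 0.379. At 6 h the log2 difference for Asb11 was 0.59 (SE 0.28, 95% interval -0.06 to 1.23, adjusted p = 0.302). The high 6 h library was replicate 3, the library with the highest slow-fibre sum, and without it the log2 difference was 0.28. At 2 h the highest library was replicate 1, without which the log2 difference was 0.88.

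Like Asb11, the remaining 6 members did not pass the limma test at 2 h. Of the 7 members other than Asb15, limma called 0, with 3 at an unadjusted p under 0.05. edgeR on the recovered reads called 0 and DESeq2 called 1 (Asb11). The background in this comparison is 0.774% of 13309 tested genes called by limma, 20.1% at an unadjusted p under 0.05, 1.18% called by edgeR and 10.4% by DESeq2. Groups did not overlap for 1 of the 7 in the higher direction and for 2 in the lower one, Asb5 and Asb12, against 14.9% and 12.6% of all tested genes. The median log2 difference of the 7 was 0.08, and that of all tested genes was -0.00029.

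Asb5 fell at 6 h and was the single member to pass the limma test in that comparison. Its libraries held 159, 207 and 182 RPKM in control, 121, 153 and 147 RPKM at 2 h, and 89.9, 106 and 85.6 RPKM at 6 h, with no overlap between any pair of groups. The log2 difference of 6 h against control was -0.95 (SE 0.14, 95% interval -1.27 to -0.64), a fall of 1.94-fold, with an adjusted p of 0.0227. In the authors' deposited table the same comparison has a fold of -1.94 (a signed fold, negative for a fall) and an adjusted p of 0.0851. The fall stayed below the threshold in 18 of 23 alternatives, with log2 differences between -1.05 and -0.86. It missed the threshold without control replicate 2 (adjusted p = 0.0894), control replicate 3 (0.105), 6 h replicate 1 (0.104), 6 h replicate 3 (0.0922) and all 3 high-matrix libraries together (0.218), a range over alternatives of 2.88e-08 to 0.218. Asb5 was highest, within its group, in control replicate 2 and in 6 h replicate 2, which are both high-matrix libraries, and with a term for those libraries the log2 difference was -0.86 (adjusted p = 0.0144). In the later build GRCm38, Asb5 overlaps the coding gene Spcs3 and the noncoding 5330439A09Rik on the opposite strand. By the mm9 coordinates in the authors' table, Spcs3 and Asb5 do not overlap, and 5330439A09Rik is not in that table. Whether counting used strand is not given in the sources used here, so reads of overlapping transcripts may still be shared.

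Asb2 had values close to control at 2 h and lower ones at 6 h. Its libraries held 164, 144 and 151 RPKM in control, 149, 205 and 138 RPKM at 2 h, and 97.3, 86.6 and 98.1 RPKM at 6 h. All 3 libraries at 6 h lay below all the others. The log2 difference of 6 h against control was -0.70 (SE 0.15, 95% interval -1.03 to -0.37, 1.63-fold lower), with an adjusted p of 0.0528, just above the threshold. Of 23 alternatives, 8 brought the adjusted p under 0.05, and the range was 0.000536 to 0.324. At 2 h the log2 difference for Asb2 was 0.08 (95% interval -0.25 to 0.41, adjusted p = 0.805). Asb2 overlaps the antisense noncoding gene Gm15523 in GRCm38.

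Asb12 lay lower in the hypoxic libraries at both times. It had 17.7, 22.1 and 21.0 RPKM in control, 11.3, 15.2 and 16.8 RPKM at 2 h, and 13.3, 11.8 and 10.4 RPKM at 6 h, and neither hypoxic group overlapped control. The log2 difference at 6 h was -0.75 (SE 0.16, 95% interval -1.11 to -0.40) with an adjusted p of 0.0541, and that at 2 h was -0.49 (SE 0.16, 95% interval -0.85 to -0.13) with an adjusted p of 0.143. Over the alternatives the 6 h adjusted p lay between 0.00111 and 0.435 and was below 0.05 in 4 of 23. Gm14818, a gene on the opposite strand that overlaps Asb12 in mm9, held 18.2, 16.6 and 13.6 RPKM at 6 h against 25.7, 30.04 and 29.4 RPKM in control (log2 -0.80, adjusted p = 0.0369 by limma). Its call was lost without each of control replicates 1, 2 and 3 and of 6 h replicates 1 and 3 (adjusted p = 0.0554, 0.122, 0.137, 0.104 and 0.115), and without each of 2 h replicates 2 and 3 (0.0527 and 0.0629). It was also lost with only the groups compared (0.0665) and with the replicate number as a block (0.0793). Without the 3 high-matrix libraries, which keeps control replicate 1 as the only control, the log2 difference of Gm14818 was -0.69. That fit does not show that its call holds. Reads of Asb12 and Gm14818 may be shared, so the values of Asb12 are uncertain in that respect.

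Asb8, reported to act on the kinase TBK1, was the member with higher values at 6 h but not at 2 h. It held 36.4, 35.9 and 34.3 RPKM in control, 36.9, 33.9 and 41.9 RPKM at 2 h, and 48.6, 46.2 and 46.4 RPKM at 6 h. The 6 h libraries lay close together and above all the others. The log2 difference of 6 h against control was 0.40 (SE 0.09, 95% interval 0.19 to 0.61, 1.32-fold) with an adjusted p of 0.0709. DESeq2 gave 0.0449 within a range of 0.00306 to 0.417 over the alternatives.

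Asb10, which some human studies have linked to glaucoma, and Asb14 showed no separation of groups. Asb10 held 35.8, 31.3 and 30.1 RPKM in control, 35.4, 39.8 and 40.9 RPKM at 2 h, and 42.8, 30.7 and 41.9 RPKM at 6 h. Asb14 held 49.1, 32.8 and 34.6 RPKM in control, 47.2, 42.5 and 44.9 RPKM at 2 h, and 39.9, 33.003 and 42.7 RPKM at 6 h. For both genes the high-matrix libraries were the lowest of the control and 6 h groups. The 95% intervals of the log2 differences at 6 h against control were -0.08 to 0.55 for Asb10 and -0.36 to 0.36 for Asb14, with adjusted p of 0.400 and 0.994 by limma.

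At 6 h against control, limma called 1 of the 7 members other than Asb15, namely Asb5, against 1.6% of all tested genes, and 4 had an unadjusted p under 0.05 against 19.1%. Of the 7, edgeR called 3 (Asb12, Asb2 and Asb5) against 2.37% of tested genes, and DESeq2 called 4 (the same 3 and Asb8) against 8.48%. Groups did not overlap for 2 of the 7 in the higher direction, Asb11 and Asb8, and for 3 in the lower one, Asb5, Asb2 and Asb12, against 16.9% and 8.99% of tested genes. The 7 members had a median log2 difference of 0.0034, beside 0.05 for all tested genes. Over all genes, 133 were called higher and 80 lower, and 97 higher and 167 lower after TMM scaling. Slow-fibre sums were higher in each 6 h library than in each control. Of the 6 slow-fibre markers, however, only 2, Myl2 and Myl3, lay above every control in all 6 h libraries, against 16.9% of tested genes.

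**Figure D2:**
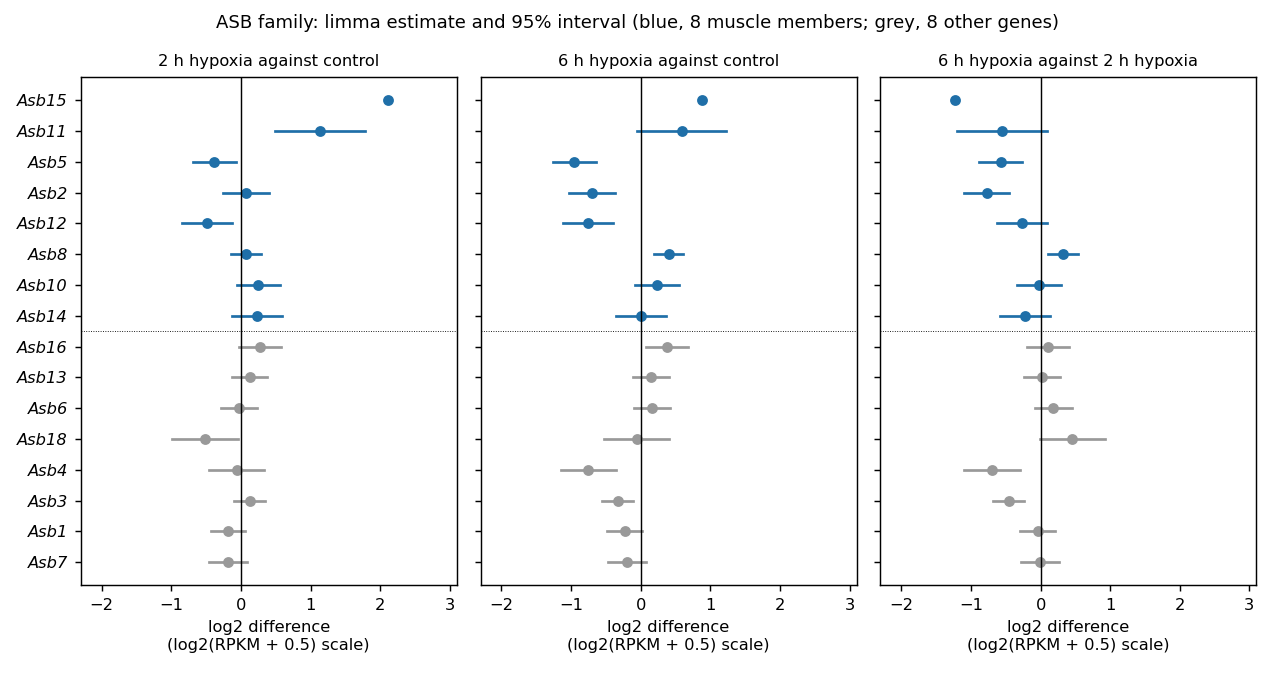
Log2 differences on the log2(RPKM + 0.5) scale (x axis) with 95% limma intervals for the 8 muscle members (blue) and the 8 other ASB genes of the table (grey), 1 panel per comparison. Asb15 is drawn without an interval, since it was chosen for its 2 h level against control. At 6 h against control the intervals of the members Asb5, Asb2 and Asb12 lie below 0 and that of Asb8 above it, and among the other genes those of Asb3 and Asb4 lie below 0 and that of Asb16 above it.

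Between the exposure times, limma called 0 of the 7 members other than Asb15 in 6 h against 2 h, where 0.143% of all tested genes were called. An unadjusted p under 0.05 was reached by 3 of the 7 (Asb2, Asb5 and Asb8), against 16.4% of tested genes. edgeR called 0 of the 7 against 0.601% of tested genes, and DESeq2 called 2 (Asb2 and Asb5) against 6.71%. Asb2 had a log2 difference of -0.78 (SE 0.15, 95% interval -1.11 to -0.45, adjusted p = 0.0791), and its groups did not overlap. Asb5 differed by -0.57 (SE 0.14, 95% interval -0.88 to -0.26, adjusted p = 0.117), again without overlap. Asb8 differed by 0.32 (SE 0.09, 95% interval 0.11 to 0.54, adjusted p = 0.158). Asb12, Asb11, Asb14 and Asb10 had adjusted p between 0.367 and 0.955. Asb15 averaged 16.4 RPKM at 6 h and 40.2 RPKM at 2 h, a log2 difference of -1.23 that is given without a test because its 2 h libraries chose it. The median of the 7 was -0.26 and that of all tested genes 0.05. Groups did not overlap for 1 of these 7 in the higher direction and 2 in the lower one, against 13.7% and 8.97%.

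Both the size and the makeup of the summed muscle ASB transcripts differed between the groups. The summed RPKM of the 8 members was 529, 547 and 521 in control, 618, 664 and 572 at 2 h, and 426, 398 and 483 at 6 h. All sums at 2 h lay above the controls and all sums at 6 h below them. The sums include Asb15, which was chosen for its 2 h level, and without it the 2 h and control sums overlapped. Without Asb5 and Asb2 the sum was 205, 195 and 188 in control, 349, 307 and 288 at 2 h, and 238, 206 and 300 at 6 h. The 6 h sums were thus below control only with Asb5 and Asb2 counted. Asb5 and Asb2 together made up 63.1 ± 1.68% of the sum in control, 49.0 ± 5.15% at 2 h and 43.5 ± 5.21% at 6 h (SD, n = 3 each). The share of Asb11 was 11.4 ± 0.857%, 22.5 ± 7.61% and 21.5 ± 6.42% in the same order, and that of Asb15 was 1.60 ± 0.404%, 6.44 ± 2.498% and 3.73 ± 1.07%. The 8 other ASB genes summed to only 30.5 ± 2.97 RPKM in control, 31.4 ± 3.26 RPKM at 2 h and 30.8 ± 1.05 RPKM at 6 h. Among them Asb16 (7.18 to 9.18 RPKM) and Asb13 (6.10 to 7.62 RPKM) overlapped Asb15 (6.76 to 10.8 RPKM) in control. The sums are given as values with no test, since the members were chosen with their levels known.

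The order of the members by level also differed between groups. At 2 h it ran Asb2, Asb5, Asb11, Asb14, Asb15, Asb10, Asb8 and Asb12, and at 6 h Asb11, Asb2, Asb5, Asb8, Asb14, Asb10, Asb15 and Asb12. At 2 h the libraries of the first 3 overlapped in neighbouring pairs, as did those from Asb14 to Asb8, so Asb15 at 2 h did not differ beyond its spread from Asb14 or Asb10. At 6 h the libraries of Asb11, Asb2 and Asb5 overlapped, and Asb15 overlapped Asb12.

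**Figure D3:**
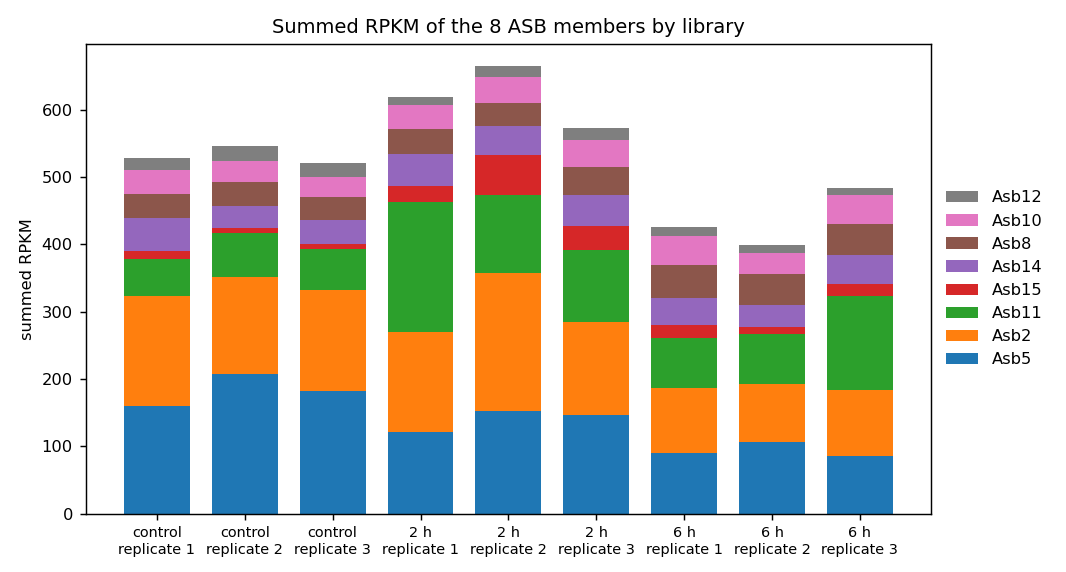
Summed RPKM of the 8 members in each library (y axis, from 0), stacked by gene, for control, 2 h and 6 h in that order. The stacks reach 521 to 547 in control, 572 to 664 at 2 h and 398 to 483 at 6 h, and the blocks of Asb5 and Asb2 are smallest at 6 h.

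The shared parts of the ligase gave no called difference beside these receptors. Cul5, the scaffold, had 12.4, 10.2 and 10.7 RPKM in control, 12.0, 10.6 and 9.03 RPKM at 2 h, and 10.2, 10.1 and 9.89 RPKM at 6 h. The RING subunit Rnf7 averaged 70.1 ± 0.526 RPKM in control, 75.7 ± 7.68 RPKM at 2 h and 79.1 ± 3.01 RPKM at 6 h. Elongin C (Tceb1) averaged 47.6 ± 2.29, 50.2 ± 8.19 and 45.1 ± 3.59 RPKM and elongin B (Tceb2) 174 ± 16.9, 201 ± 20.4 and 196 ± 7.97 RPKM in the same order (SD, n = 3 each). Of these 4 genes, limma called 0 in all 3 comparisons, with 0 at an unadjusted p under 0.05, 0 called by edgeR or DESeq2, and log2 differences between -0.14 and 0.21 (adjusted p = 0.305 to 0.900). Per unit of length, the 8 receptors together were 48.3 ± 5.64 times as abundant as Cul5 in control, 59.2 ± 6.66 times at 2 h and 43.4 ± 4.85 times at 6 h.

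The rest of the pathway gave few calls by limma. For each list below, counts run in the order 2 h to control, 6 h to control, then 6 h to 2 h. Of all tested genes in that order, 20.1%, 19.1% and 16.4% had an unadjusted p under 0.05, edgeR called 1.18%, 2.37% and 0.601%, and DESeq2 called 10.4%, 8.48% and 6.71%. Of the 8 other ASB genes, limma called 0 in each comparison, with median log2 differences of -0.04 at 2 h and -0.13 at 6 h against control. An unadjusted p under 0.05 was reached by 1, 3 and 2 of these 8, edgeR called 0, 1 and 0, and DESeq2 called 0, 2 and 2. The edgeR call was Asb4, and the DESeq2 calls were Asb3 and Asb4 in both comparisons. At 6 h, 4 of them lay below control without overlap, Asb4, Asb3, Asb1 and Asb7, and 1 above it, Asb16, against 8.99% and 16.9% of tested genes. Asb4 had 1.89, 2.69 and 1.91 RPKM at 6 h against 4.22, 3.52 and 4.14 RPKM in control (log2 -0.75, adjusted p = 0.0692). Asb3 had 1.73, 1.99 and 1.94 RPKM against 2.70, 2.43 and 2.36 RPKM (log2 -0.33, adjusted p = 0.128). At 2 h the smallest p-values were those of Asb18 (log2 -0.51, adjusted p = 0.215) and Asb16 (log2 0.27, adjusted p = 0.289). In 6 h against 2 h, Asb3 (log2 -0.46) and Asb4 (log2 -0.70) had adjusted p of 0.103 and 0.125.

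Genes for neddylation, the NEDD8 attachment that switches cullin ligases on, and for receptor exchange and NEDD8 removal numbered 23 of 23 tested, with 0 called in each comparison and medians of 0.11 at 2 h and 0.08 at 6 h. An unadjusted p under 0.05 was reached by 10, 3 and 1 of the 23 (20.1%, 19.1% and 16.4% of all tested genes), edgeR called 0, 0 and 0, and DESeq2 called 3, 1 and 1. The smallest p-values were those of Gps1, a COP9 signalosome subunit (log2 0.32 at 2 h, adjusted p = 0.114), Dcun1d3, a neddylation helper (log2 -0.38 at 2 h, adjusted p = 0.114), and Senp8, which processes NEDD8 (log2 -0.53 at 6 h, adjusted p = 0.0655). Arih2, the partner ligase of neddylated Cul5, stood at log2 0.31 at 6 h (adjusted p = 0.161). Other SOCS-box receptors, 16 of 18 listed, had 0 calls in each comparison and medians of -0.10 and 0.03. At an unadjusted p under 0.05 there were 4, 0 and 4 of the 16 (20.1%, 19.1% and 16.4% of all), with 0 called by edgeR in each comparison and 1, 0 and 1 by DESeq2, both times Wsb1. Among them Wsb1 had a log2 difference of -0.61 at 2 h (adjusted p = 0.197) and Rab40c one of 0.32 (adjusted p = 0.140).

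Proteins reported as ASB substrates in various cells, 9 of 9 genes tested, also gave 0 calls in each comparison, with medians of 0.01 and 0.08. At an unadjusted p under 0.05 there were 2, 1 and 1 of the 9 (20.1%, 19.1% and 16.4% of all), edgeR called 0 in each comparison, and DESeq2 called 2 (Des and Flnc), 1 (Sh2b2) and 1 (Sh2b2). Desmin (Des), the muscle intermediate filament protein targeted by Asb2, held 1654, 1346 and 1209 RPKM at 2 h against 891, 1136 and 978 RPKM in control (log2 0.48, adjusted p = 0.127). Every 2 h library was above every control. Flnc, the muscle filamin, held 76.1, 60.4 and 40.5 RPKM at 2 h against 74.3, 181 and 155 RPKM in control (log2 -1.15, adjusted p = 0.146), and its 3 highest libraries were the high-matrix ones. Sh2b2, an insulin receptor adaptor reported to bind Asb6, held 2.25, 3.56 and 2.53 RPKM at 6 h against 0.817, 1.36 and 1.28 RPKM in control (log2 0.98, adjusted p = 0.0923).

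Kelch proteins, the muscle adaptors of the related Cul3 ligases, gave 1 call by limma. Of the 9 tested, 3, 5 and 2 had an unadjusted p under 0.05 (20.1%, 19.1% and 16.4% of all). edgeR called 1 in each comparison, Klhl38 at 2 h and Klhl31 in the others. DESeq2 called 2 at 2 h (Klhl38 and Klhl30), 4 at 6 h (Klhl31, Kbtbd13, Klhl30 and Klhl33) and 1 at 6 h against 2 h (Klhl31). Klhl31, which is needed for normal muscle structure in mice, fell at 6 h to 15.1, 16.8 and 15.6 RPKM, against 26.9, 26.0 and 28.1 RPKM in control. Its log2 difference was -0.75 (SE 0.11, adjusted p = 0.0227 by limma). The call was lost without control replicate 2 (adjusted p = 0.0881), control replicate 3 (0.106), 6 h replicate 1 (0.104) or 6 h replicate 3 (0.0952). It was also lost with the replicate number as a block (0.0587). Without all 3 high-matrix libraries the log2 difference was -0.79. Klhl38, known to be high in wasting muscle, held 20.5, 36.4 and 21.0 RPKM at 2 h against 9.35, 9.97 and 12.0 RPKM in control (log2 1.23, adjusted p = 0.0525), with replicate 2 the highest as for Asb15. Kbtbd13 had a log2 difference of -0.62 at 6 h (adjusted p = 0.102) and Klhl33 one of 1.03 at 2 h (adjusted p = 0.165). The list median was -0.12 at 2 h and -0.17 at 6 h.

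**Figure D4:**
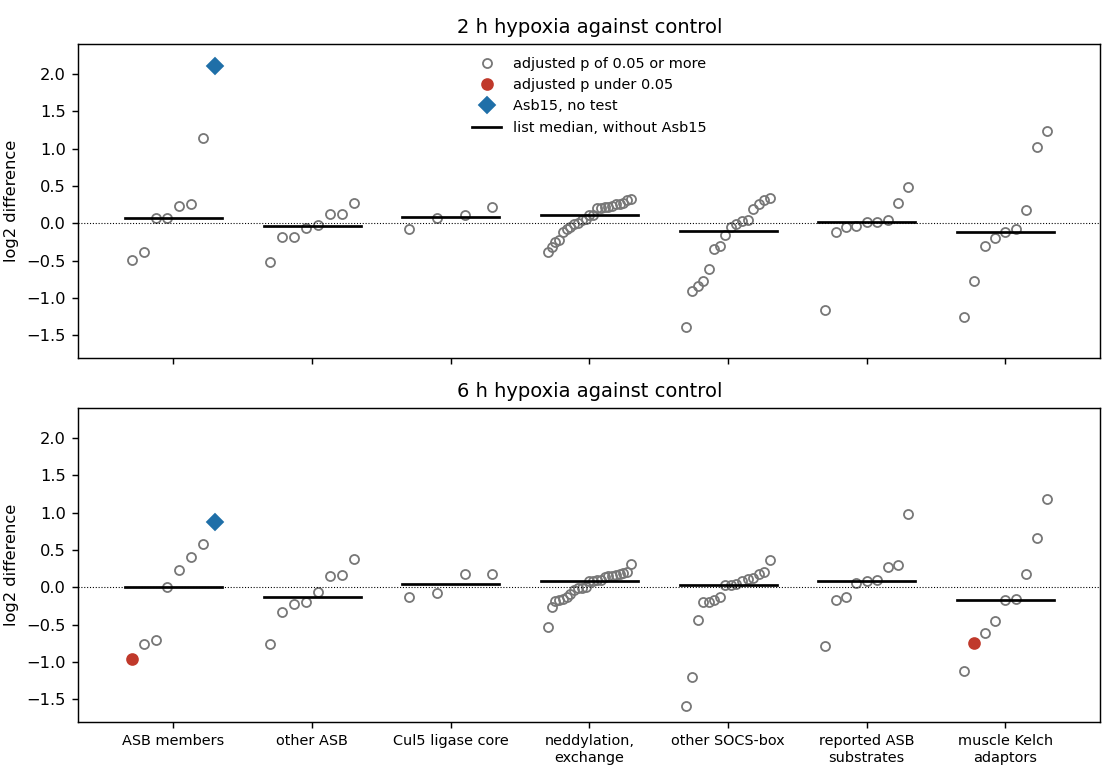
Log2 differences (y axis, log2(RPKM + 0.5) scale) of every tested gene in the 8-member group and 6 related lists, at 2 h against control (top) and 6 h against control (bottom), with list medians, taken without Asb15, as bars. Filled red circles mark genes with a limma adjusted p under 0.05, Asb5 and Klhl31 at 6 h, and the blue diamonds are Asb15, which has no test.

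The neighbours of Asb15 on chromosome 6 (mm9, 24478144 to 24523164, plus strand) did not share its pattern in full. Ndufa5, a subunit of respiratory complex I, lies 130 bases upstream on the minus strand. It held 393, 354 and 404 RPKM at 2 h against 462, 442 and 425 RPKM in control (log2 -0.21, adjusted p = 0.261). Lmod2, an actin filament nucleator of striated muscle, lies 24606 bases downstream on the same strand. It held 87.5, 98.1 and 106 RPKM in control, 139.7, 213 and 160.4 RPKM at 2 h, and 158, 175 and 166 RPKM at 6 h. All hypoxic libraries of Lmod2 lay above the controls, with log2 differences of 0.80 at 2 h (adjusted p = 0.0527) and 0.78 at 6 h (adjusted p = 0.0438, a rise). The 6 h call was lost without each control and each 6 h library (adjusted p = 0.0590 to 0.129), and without 2 h replicate 3 (0.0726). It was also lost without the mean-variance trend (0.0561), with edgeR (0.0538), with TMM scaling (0.0563) and with the replicate number as a block (0.0605). Without the 3 high-matrix libraries, which keeps control replicate 1 as the only control, the 6 h log2 difference was 0.88. That fit does not show that the call of Lmod2 holds. At 6 h against 2 h Lmod2 differed by -0.02 on the log2 scale and Asb15 by -1.23.

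Over the 9 libraries, the 5 tested genes whose log2 levels ran most like Asb15 were Fam55c, Cnnm3, Tubgcp6, Syt3 and Cyp27a1, with Pearson r of 0.976, 0.974, 0.958, 0.952 and 0.952 and Spearman rho of 0.967, 0.967, 0.933, 0.917 and 0.983. Without control replicate 2 and 2 h replicate 2, the libraries farthest from the median of Asb15, r was 0.947, 0.976, 0.896, 0.939 and 0.902. These are the highest of 13309 genes over points that share their groups and libraries, and are a description. All but Cyp27a1 (19.2 to 38.2 RPKM), a mitochondrial sterol hydroxylase, were expressed at low levels, between 0.394 and 3.61 RPKM. Among the members, Asb15 ran most closely with Asb10 (r = 0.74) and Asb11 (r = 0.67), while Asb5 and Asb12 had r = 0.91, and Asb2 and Asb8 ran opposite (r = -0.92).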

How the data were processed

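Plantaris RNA of 9 libraries was compared in 3 groups read from the titles. TopHat2, Bowtie2, SAMtools, bedtools and FastQC (no versions) and build mm9 are listed in the submitters' processing notes. The authors deposited RPKM per library, a unit read from the values themselves. Their table adds the highest read count of each gene, p-values of the authors' own comparisons (the test is not given in the sources used here) and a signed fold, which is a score and not a log. Steps of low RPKM returned whole reads within 0.1 read for 100% of 40182 values below 500 reads, after taking off 1 read, by which the steps of the values were offset.

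Genes with mean RPKM of at least 0.5 (13309) were log2-transformed after adding 0.5 and fitted with limma 3.58.1 (R 4.3.3), using group means over all libraries and a trended prior variance, and Benjamini-Hochberg adjusted p under 0.05 was called. Folds on this scale understate low genes. The alternatives, 23 in all, changed the pseudocount (0.1, 1), filter, scaling, variance model, library weights, libraries, replicate block and test (edgeR 4.0.16 and DESeq2 1.42.0 on recovered reads). The fits were tested on simulated data. The members, gene lists and the 3 high-matrix libraries were chosen with earlier results of these data known. The genes named are the members, the ligase core, called genes and the 2 smallest p-values of each list, the neighbours and overlapping gene, and the 5 genes most like Asb15. Genes called by edgeR or DESeq2 alone were named after their values were seen. Coordinates of genes are those of mm9 in the table, and promoters those of GRCm38.p6. Same-numbered libraries did not deviate together throughout, with r over 0.1 in 2 of 9 pairs. Both were control with 6 h, at r = 0.35 for replicate 1 and 0.49 for replicate 2, while replicate 3 had -0.33. These values cannot settle whether the numbers are pairs. The main fit did not treat them as pairs, and the replicate block is given among the alternatives.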

Additional observations from a re-analysis of the deposited data

How the results depend on the processing

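At 2 h against control, the count of called members other than Asb15, which was 0, became 5 with library weights and 1 with DESeq2, which called 23.1% and 10.4% of all tested genes. At 6 h against control, the count of 1 became 2 with a mean RPKM of at least 1, with TMM scaling, with only the groups compared and with a term for the 3 high-matrix libraries, 5 with library weights, 3 with edgeR, 4 with DESeq2 and 0 without the 3 high-matrix libraries (2.08%, 1.98%, 0.549%, 2.81%, 30.9%, 2.37%, 8.48% and 0 of all genes in that order), and it ranged from 0 to 2 when each library was left out. At 6 h against 2 h, the count of 0 became 2 with library weights, 1 with the term and 2 with DESeq2 (0.894%, 0.744% and 6.71% of all genes), and ranged from 0 to 0 without each library. With the replicate block the counts were 0, 1 and 0, and over all genes 1, 43 and 2 were called in place of 103, 213 and 19. Asb5 at 6 h stayed called with the block (adjusted p = 0.0263), while the calls of Klhl31 (0.0587), Lmod2 (0.0605) and Gm14818 (0.0793) were lost. Same-numbered libraries correlated between -0.33 and 0.49 in their deviations. Signs turned in log2 differences that limma did not call, of which 1, Asb14 at 2 h, was called with library weights (log2 0.34, adjusted p = 0.04996, the lowest of a range up to 0.805 over the alternatives). For Asb10 at 6 h against 2 h (-0.02) the value was 0.0673 with weights, 0.0913 with the term, 0.13 without the 3 libraries and -0.11 to 0.13 leaving out 1 library. For Asb14 it was -0.0573 with the term and -0.13 without the 3 libraries at 2 h, and at 6 h (0.00) -0.0593 with TMM, -0.0228 with median scaling, -0.14 with the term, -0.25 without the 3 libraries, -0.0622 with edgeR, -0.0545 with DESeq2 and -0.11 to 0.18 leaving out 1 library. For Asb2 at 2 h it was -0.0325 with the term, -0.0259 without the 3 libraries and -0.10 to 0.19 leaving out 1 library, and Asb8 at 2 h ranged from -0.0034 to 0.15. Weights gave 0.0639 for Ndufa5 at 6 h, -0.0292 for Tceb1 at 2 h and 0.0178 for Tceb2 at 6 h against 2 h. Leaving out 1 library gave -0.17 to 0.0236 for Cul5 at 2 h and -0.16 to 0.0384 at 6 h against 2 h, -0.15 to 0.15 for Lmod2, -0.0050 to 0.14 for Rnf7 and -0.12 to 0.0148 for Tceb2 at 6 h against 2 h, -0.0675 to 0.0464 for Ndufa5 at 6 h, and -0.0644 to 0.14 for Tceb1 at 2 h. Of the other values, 1572 kept their direction and, where tested, their side of the threshold, 84 crossed it to pass and 33 to miss it. The 1572 include the values of Asb15, which kept their direction and have no test. The cause was not tested. Fewer libraries in a fit also mean fewer degrees of freedom.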

Other observations

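Klhl33, a Kelch adaptor of muscle, had its lowest values of the control and 6 h groups in the high-matrix libraries, as did Asb15, Asb10 and Asb14. It held 13.1, 6.88 and 7.07 RPKM in control, 17.7, 20.1 and 16.7 RPKM at 2 h, and 28.3, 10.8 and 26.9 RPKM at 6 h. Cish, a cytokine-induced SOCS-box protein, stood at 26.3 RPKM in control replicate 1 and between 0.957 and 4.79 RPKM in the other 8 libraries, and its log2 difference at 6 h was -1.59 (SE 0.87, adjusted p = 0.351 by limma). Leaving out 1 library moved this difference between -2.39 and -0.61.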
